A study of Homo with 2 samples.

Results

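Human blastoids, which are embryo-like aggregates grown from pluripotent stem cells, contained a set of cells with amnion markers and high levels of MKI67 and TOP2A. MKI67 encodes the Ki-67 antigen, which coats mitotic chromosomes, and TOP2A encodes the topoisomerase that untangles replicated DNA. The cycling amnion-like cells were selected on high MKI67 and TOP2A and on limits for genes of other cell types. The rule used none of the amnion markers given below, so the name describes the set and not each cell. Levels are in UMIs (unique molecular identifiers, each a counted transcript molecule) per 1000000 UMIs of the cell (CPM). MKI67 and TOP2A together had to be at 300 CPM or more. POU5F1, the pluripotency factor OCT4, had to be under 200 CPM, and GATA2, GATA3, PPARG and PEG10, which are high in trophoblast, under 700 CPM in sum. A cell also needed at least 1000 detected genes, at least 10000 UMIs and 1 to 20% mitochondrial UMIs. The rule kept 188 cells of library 1 and 245 of library 2, 433 of 4589 barcodes in all. The 715 resting cells they were set against, 325 and 390 per library, passed the same limits and had at most 60 CPM of MKI67 and TOP2A together. A further 118 and 165 cells lay between 60 and 300 CPM and are called intermediate.

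All cells came from 1 group, day 4 blastoids of the human embryonic stem cell line KhES1, in 2 droplet libraries of the 3' ends of transcripts. Primed stem cells were left to aggregate in microwells for 24 h and were then held for 4 days in a PNIPAAm-β-PEG hydrogel, in high-glucose DMEM with 10% fetal bovine serum and 10 µM of Y27632, an inhibitor of the kinase ROCK, which every cell therefore met. The blastoids were made from a single line, and whether the libraries are of separate cultures is not in the labels. The p-values therefore measure only how far differences between classes of cells varied from one library to the other, which may be technical. This spread was pooled over 6 classes, some of them small and outside the comparison of cycling with resting amnion-like cells.

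The cell cycle is run by waves of transcription. Genes for DNA replication are induced by E2F factors as cells leave G1, histone genes are expressed while DNA is copied, and genes for chromosome segregation are induced in G2 by the MuvB complex with MYBL2 and FOXM1. MKI67 and TOP2A belong to the G2 and mitosis wave, so a rule on their sum leans towards late S phase, G2 and mitosis. The amnion is the thin epithelium that encloses the embryo, and VTCN1, an immune checkpoint protein of the B7 family, and GABRP, a GABA receptor subunit, are among its markers.

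The 2 libraries held 38665475 and 45208758 UMIs over 1988 and 2601 barcodes, of which 768 and 979 were within the limits on genes, UMIs and mitochondrial reads. One barcode occurred in both libraries. Cycling cells were deeper than resting ones, with medians of 46875 and 42960 UMIs in libraries 1 and 2, against 35856 and 31828.5 in resting cells. Their median numbers of detected genes were 8262.5 and 8159, against 7282 and 6872. Mitochondrial UMIs were at medians of 6.31% and 6.23% in cycling cells and of 6.39% and 6.51% in resting cells. A doublet caller marked 4 and 3 barcodes, 0 of them cycling cells of this gate.

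The markers bore out the cycling part of the name by construction. The cycling cells held a median of 709 and 646 CPM of MKI67 and TOP2A, and up to 2840 and 2541, against a median of 0 in resting cells of both libraries. Summed over cells, MKI67 (GRCh38 chromosome 10, 128096659 to 128126423) stood at 229 and 218 CPM in cycling cells, against 3.87 and 3.99 CPM in resting cells. TOP2A (chromosome 17, 40388525 to 40417896) stood at 671 and 545 CPM in cycling cells and at 8.59 and 6.75 CPM in resting cells. Each UMI was also put at random in one of 2 parts, with the rule applied to one part and the levels read in the other. MKI67 then stood at 219 and 202 CPM in cycling cells, against 8.35 and 7.41 CPM in resting cells. Both parts came from the same cells and the same genes, so a contrast in the second part followed from the choice. These values describe the choice and carry no test.

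Amnion markers were present in the cells, together with some markers of other cell types. Of 18 amnion markers, 17 were at 10 CPM or more in cycling cells of both libraries, and the remaining one, GCM1, had 0 UMIs. GABRP stood at 402 and 422 CPM and VTCN1 at 149 and 205 CPM. The pluripotency gene SOX2 was at 4.06 and 4.14 CPM, NANOG at 0.792 and 0.540 CPM, the primitive streak gene TBXT at 1.98 and 1.35 CPM and the endoderm gene SOX17 at 0 and 0.540 CPM. Of 16 epiblast markers that the rule did not use, however, 9 were at 10 CPM or more, led by L1TD1 at 280 and 299 CPM, PODXL at 201 and 208 CPM and LIN28B at 195 and 180 CPM. Of 13 mesenchyme and matrix markers 11 were at that level, with VIM, vimentin, at 1128 and 1202 CPM and FN1, fibronectin, at 973 and 936 CPM. Of 14 trophoblast markers that the rule did not use 7 were, among them KRT7, NR2F2 and LRP2, whereas ERVW-1, of the syncytiotrophoblast, had 0 UMIs.

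The POU5F1-high cycling cells left out by the rule, 17 and 35 in number, carried another profile. Their VTCN1 was at 0 and 20.4 CPM, their GABRP at 11.9 and 32.9 CPM, their SOX2 at 68.9 and 124 CPM and their MIXL1, a primitive streak gene, at 220 and 210 CPM. MIXL1 was at 1.78 and 4.41 CPM in the cycling amnion-like cells.

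A similar part of the gate was cycling by the rule in both libraries. It was 188 of 631 cells in library 1 (29.8%, exact 95% Clopper-Pearson interval 26.2 to 33.5%) and 245 of 800 in library 2 (30.6%, 27.4 to 33.9%), a mean of 30.2% ± 0.588 (SD, n = 2). The intervals cover counting error only. Among cells high for the GATA2, GATA3, PPARG and PEG10 sum the share was 27.1% ± 7.05, and among POU5F1-high cells it was 44.2% ± 5.28 (SD, n = 2 each), so that the GATA-sum-high share differed from the amnion-like one by less than its own spread between libraries. A share of this kind moves with its threshold: it was 35.4% at 200 CPM and 21.1% at 500 CPM.

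At the threshold the values ran on without a gap. Cells just inside it, at 300 to 350 CPM of MKI67 and TOP2A, numbered 16 and 26, and those just outside, at 250 to 300 CPM, 16 and 21. With every cell thinned at random to 10000 UMIs, the median count of 83 mitosis genes was 51 and 53.5 UMIs just inside and 44.5 and 54 UMIs just outside. On the other limits, 12 cycling cells of both libraries lay at 600 to 700 CPM for the GATA2, GATA3, PPARG and PEG10 sum, and 14 that were left out lay at 700 to 800 CPM.

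Cycling and resting cells were compared by summing UMIs per library and class and testing the sums with edgeR's quasi-likelihood test, with the library as a block. Of 14969 genes tested, 853 rose in cycling cells (5.7%) and 847 fell (5.66%) at a Benjamini-Hochberg adjusted p under 0.05, the threshold used throughout. All 1700 had the same direction in both libraries, but both libraries entered the test, so this is not a separate check. The falls were smaller: of the 580 genes that differed at least 2-fold, 381 rose and 199 fell, and the median log2 fold change over all genes tested was -0.03. The number of falls depended on the limits of the gate. It was 398, with 702 rises, when only cells with under 100 CPM of POU5F1 and under 350 CPM of the GATA2, GATA3, PPARG and PEG10 sum were kept, a limit chosen after seeing the data.

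The 10 largest rises were taken among genes that passed a limit on level, given with the data processing. Of these 10 genes, 8 belong to lists of mitosis genes. That limit left out some larger rises. Among them were CKAP2L (log2 fold change 5.19), H1-5 (5.15) and HJURP (4.55), against 4.21 for TPX2, the smallest of the 10. PLK1, the polo-like kinase that drives entry into mitosis (chromosome 16, 23678889 to 23690367), stood at 65.3 and 65.2 CPM in cycling cells, against 1.86 and 2.54 CPM in resting cells. Both cycling libraries lay far above both resting ones, a log2 fold change of 4.82 (SE 0.23, edgeR adjusted p 7.82e-08). NDC80, the kinetochore protein that grips microtubules, was at 101 and 99.5 CPM, against 2.79 and 4.06 CPM, a log2 fold change of 4.80 (SE 0.17). UBE2C, the ubiquitin-conjugating enzyme of the anaphase-promoting complex, was at 190 and 197 CPM, against 6.35 and 8.27 CPM, a log2 fold change of 4.66 (SE 0.22).

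The spindle proteins TPX2, HMMR, NUSAP1 and DLGAP5 are in the same group. TPX2, which activates the kinase Aurora A, was at 234 and 216 CPM in cycling cells and at 10.8 and 12.6 CPM in resting cells. The log2 fold changes of these 4 genes ran from 4.21 for TPX2 to 4.63 for HMMR. GTSE1, a microtubule-binding protein of G2 (4.28), and DEPDC1 (4.67) were further members of the leading 10.

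The largest rise of these 10 was that of APOLD1, known as a gene of endothelial cells and a member of none of the lists. It stood at 63.6 and 50.8 CPM in cycling cells, against 1.39 and 1.31 CPM in resting cells, a log2 fold change of 5.31 (SE 0.25, edgeR adjusted p 7.25e-08). APOLD1 lies on chromosome 12 from 12725917 to 12791466, and the next gene is CDKN1B, from 12717368 to 12722369, with 3547 bases between them in the RefSeq annotation of GRCh38.p14. CDKN1B encodes p27, an inhibitor of cyclin-dependent kinases, and also rose, at 35.1 and 31.8 CPM in cycling cells, against 13.0 and 13.7 CPM in resting cells (log2 fold change 1.26, SE 0.17). Whether reads of one were counted for the other was not tested.

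**Figure D1:**
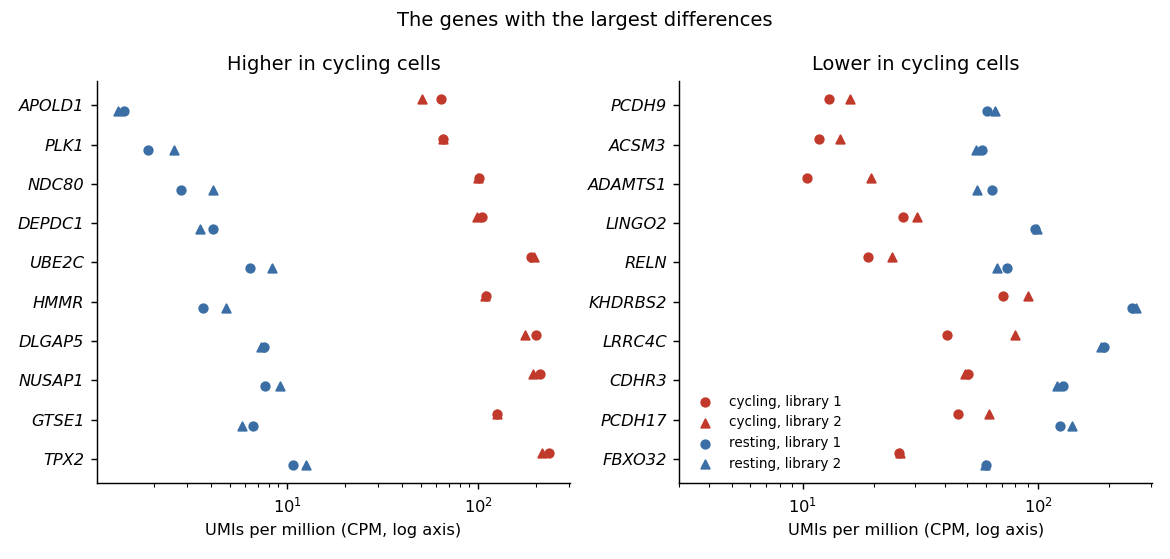
Levels of the 10 genes with the largest rises (left) and the 10 with the largest falls (right) in cycling amnion-like cells, in CPM on a log axis. Both sets were taken among genes that passed the limit on level given with the data processing. Red points are cycling and blue points resting cells, circles library 1 and triangles library 2; for each of the 20 genes the 2 cycling values lie on the same side of both resting values.

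All 83 genes of the lists for mitosis passed the test, and all of them rose. These were 18 of 18 mitotic entry kinases and cyclins, 20 of 20 genes of the centromere, kinetochore and spindle checkpoint, 21 of 21 of the spindle and its motors, 11 of 11 of condensin and the chromosome passenger complex and 13 of 13 of mitotic exit and cytokinesis. The median log2 fold changes of these 5 lists were 2.97, 3.05, 3.77, 2.11 and 2.96, against -0.03 over all genes tested. The counts stand beside the 5.7% of all genes that rose, and the lists share their phase with the MKI67 and TOP2A that chose the cells, so they describe the choice more than they add to it.

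The entry list holds the cyclins and the kinase of G2 and mitosis. CCNA2, the cyclin of S phase and G2, stood at 79.7 and 80.9 CPM in cycling cells, against 3.87 and 5.37 CPM in resting cells, a log2 fold change of 4.05 (SE 0.22). CCNB1, the cyclin of mitosis, was at 200 and 183 CPM, against 18.4 and 20.4 CPM (3.23, SE 0.36), and CCNB2 at 110 and 114 CPM, against 15.0 and 17.1 CPM (2.73, SE 0.19). Their kinase CDK1 was at 159 and 134 CPM in cycling cells and at 8.90 and 9.29 CPM in resting cells (3.93, SE 0.18). WEE1, the kinase that holds CDK1 inactive, had the smallest difference of the list at 0.65.

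The kinetochore protein CENPF stood at 857 and 743 CPM in cycling cells, against 43.1 and 46.7 CPM in resting cells (log2 fold change 4.09, SE 0.18). CENPE, a motor of the kinetochore, stood at 174 and 131 CPM, against 8.05 and 9.43 CPM, and the centromere loader HJURP at 49.4 and 46.9 CPM, against 2.09 and 1.81 CPM. In the spindle list CKAP2L had the largest log2 fold change, 5.19 (SE 0.23), from a resting level of 1.24 and 1.02 CPM. Condensin subunits spread more widely: NCAPG, of condensin I, rose by 3.73 on the log2 scale and NCAPH2, of condensin II, by 0.58.

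The 40 replication genes rose less, and not all passed. Of 12 genes of origin licensing and the MCM helicase 10 rose, with a median log2 fold change of 0.81, of 20 at the replication fork 17 rose (0.82), and of 8 for deoxynucleotide supply 7 rose (1.06). RRM2, the small subunit of ribonucleotide reductase, led them with 92.5 and 84.8 CPM in cycling cells, against 15.2 and 17.8 CPM in resting cells (2.36, SE 0.13). TYMS, thymidylate synthase, was at 116 and 111 CPM, against 26.8 and 35.0 CPM (1.82, SE 0.18), and TK1, thymidine kinase, differed by 1.83.

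Of the 6 subunits of the MCM helicase MCM2 (0.72), MCM3 (0.52), MCM4 (0.46) and MCM7 (0.84) rose. MCM6 stood at 40.5 and 40.3 CPM in cycling cells and at 39.1 and 38.7 CPM in resting cells, a log2 fold change of -0.01 (edgeR adjusted p 0.978). MCM5 differed by 0.30 and did not pass. MCM10, an initiation factor outside the helicase ring, rose by 1.29 on the log2 scale. The licensing factor CDT1 (1.12) and its inhibitor GMNN, geminin (1.20), both rose. Of 14 genes of replication-coupled repair 12 rose, with a median of 1.29, led by RAD51AP1 at 80.8 and 74.6 CPM, against 13.7 and 14.8 CPM (2.38).

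Histone genes, which are expressed while DNA is copied, rose as well. Of 20 genes for histone supply and chromatin assembly 16 rose, with a median log2 fold change of 1.12. H4C3, a replication-dependent histone H4 gene on chromosome 6 (26103933 to 26104337), was at 821 and 651 CPM in cycling cells, against 77.0 and 65.8 CPM in resting cells (3.30, SE 0.18). The linker histones H1-3 (3.75), H1-4 (2.83) and H1-5 (5.15) rose too, H1-5 with 44.8 and 51.4 CPM in cycling cells, against 1.70 and 0.871 CPM in resting cells. Replication-dependent histone transcripts lack poly(A) tails for the most part, so a protocol that primes on poly(A) counts them incompletely, in both kinds of cell.

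**Figure D2:**
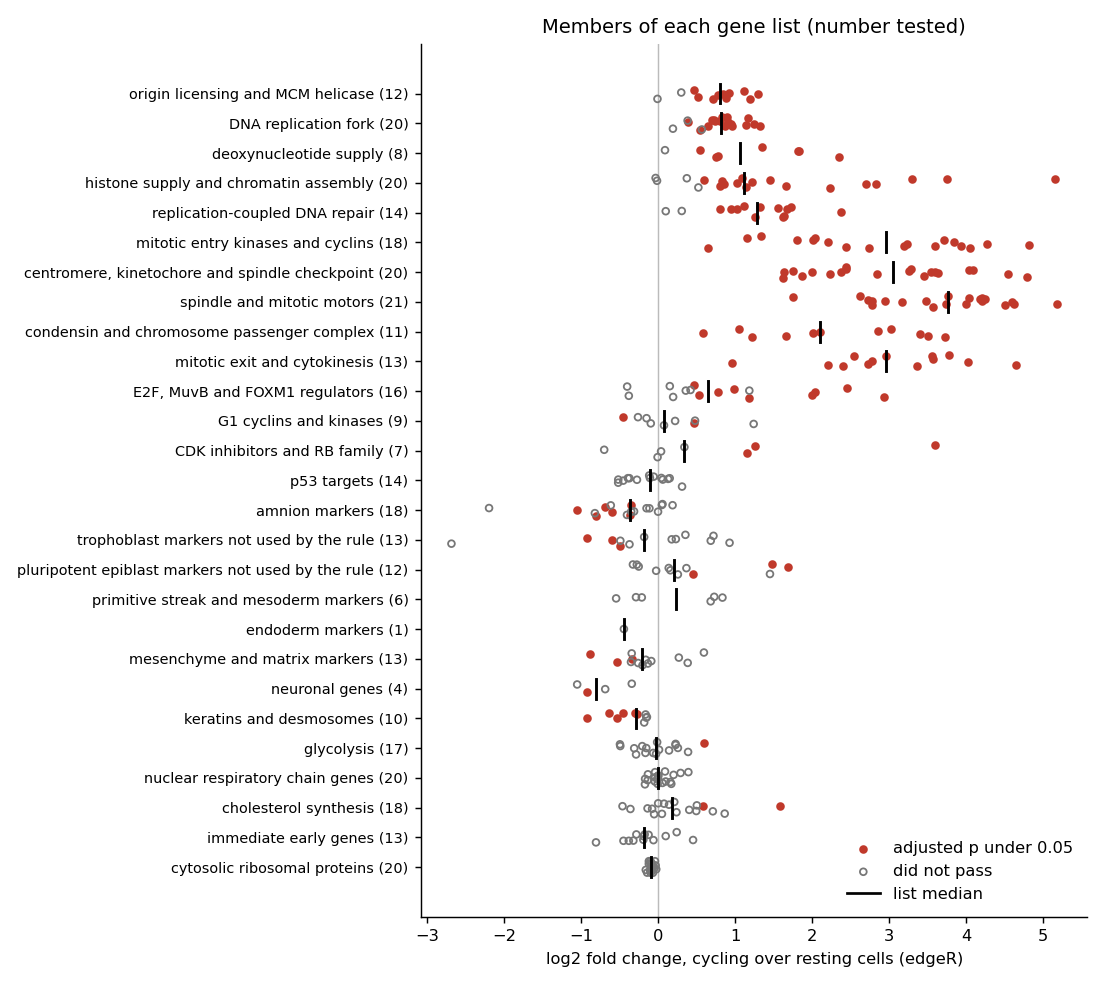
Log2 fold change (cycling over resting amnion-like cells, edgeR) of each member of 27 gene lists, with the number tested in brackets. Filled points passed the test, open points did not, and black bars are list medians. The 5 mitosis lists have their medians between 2.11 and 3.77. The amnion, trophoblast, neuronal, mesenchyme and keratin lists are among those with medians under 0. So are the immediate early genes (-0.19) and p53 targets (-0.11), and the median over all genes tested is -0.03.

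Of 16 regulators of these waves 9 rose. FOXM1 stood at 62.2 and 58.7 CPM in cycling cells, against 7.27 and 7.84 CPM in resting cells (log2 fold change 2.93, SE 0.18). MYBL2 was at 87.1 and 81.4 CPM, against 34.1 and 36.8 CPM (1.18), and the MuvB subunits LIN9 (0.77), LIN54 (0.99) and LIN52 (0.53) rose as well, whereas LIN37, of the same complex, differed by -0.40 and did not pass (edgeR adjusted p 0.0996). The repressive E2F factors E2F7 (2.00) and E2F8 (2.46) rose. Of the activators, E2F1 was at 7.23 and 6.84 CPM, against 9.29 and 8.27 CPM, a log2 fold change of -0.38 (edgeR adjusted p 0.319). E2F2 (1.18, edgeR adjusted p 0.0668) and E2F3 (0.15) did not pass either.

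Of 9 G1 cyclins and kinases 1 rose, CDK4, and 1 fell, CDK6, beside 5.7% and 5.66% of all genes. CDK4 was at 105 and 99.9 CPM in cycling cells, against 66.3 and 76.1 CPM in resting cells (0.46, edgeR adjusted p 0.00847), and CDK6 at 253 and 275 CPM, against 343 and 348 CPM (-0.45, edgeR adjusted p 0.00829). Each of these 2 calls was lost in 1 of 12 other settings, CDK4 with cells of 20000 to 60000 UMIs, a range chosen after seeing the data (adjusted p 0.0592), and CDK6 with the UMIs split at random into a part for the rule and a part for the levels (adjusted p 0.0874).

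The D-type cyclin CCND2, which licenses G1 cells for division, stood at 138 and 140 CPM in cycling cells and 146 and 150 CPM in resting cells, a log2 fold change of -0.15 that did not pass. CCND3 stood at 30.7 and 33.8 CPM, against 36.1 and 29.8 CPM, and CCND1 at 4.75 and 2.70 CPM, against 1.08 and 1.89 CPM. CCNE1, the cyclin of S phase entry, was at 12.8 and 14.6 CPM, against 10.8 and 11.7 CPM, and CCNE2 at 3.56 and 3.42 CPM, against 4.02 and 3.99 CPM. A p that misses the threshold does not show that these levels were equal.

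Inhibitors of the cycle were not uniformly lower in cycling cells. Of 11 CDK inhibitors and RB family members 7 were tested, and 3 of them rose: CDKN1B, given above, CDKN3, a phosphatase of mitosis (40.1 and 40.0 CPM, against 2.48 and 3.85 CPM), and RBL1, which encodes p107 (60.8 and 58.6 CPM, against 23.4 and 27.6 CPM). CDKN1C, which encodes p57, stood at 72.1 and 62.7 CPM, against 110 and 98.9 CPM. Both cycling values were the lower ones, yet the log2 fold change of -0.70 did not pass (edgeR adjusted p 0.291). CDKN1C did pass as a fall in some other settings of edgeR: with thinning (adjusted p 0.0122), with cells of 20000 to 60000 UMIs (adjusted p 1.19e-04) and with only the 2 classes compared (adjusted p 3.53e-06). RB1 differed by -0.01 and changed sign with the setting. CDKN1A, which encodes p21, was at 2.38 and 2.70 CPM, against 2.63 and 2.10 CPM. Of 14 p53 target genes tested 0 passed, with edgeR or DESeq2 (2 had an unadjusted p under 0.05). Over all settings up to 4 of the p53 targets fell and up to 1 rose.

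Transcripts of several phases were found among the cycling cells, each in a part of them. A cell without a UMI of a gene may still express it, so such shares do not by themselves show distinct phases. After thinning to 10000 UMIs, PLK1 had a UMI in 74 of 188 and 98 of 245 cycling cells, against 2.15% and 2.05% of resting cells, CCNB1 in 73.9% and 71.4%, against 15.7% and 15.6%, and the fork clamp PCNA in 94 of 188 and 115 of 245 cells, against 24.0% and 27.4%. The shares in resting cells also contain any free RNA, whose part was not tested. The median count of the 83 mitosis genes was 78 and 70 UMIs in cycling cells, 28 and 31 in intermediate cells and 7 in resting cells of both libraries. The median of the 40 replication genes was 20 in cycling cells of both libraries, 16.5 and 16 in intermediate cells and 8 and 7 in resting cells.

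Replication genes therefore separated the classes less than mitosis genes did. The classes were cut on MKI67 and TOP2A, of the G2 and mitosis wave, so a better separation by mitosis genes follows from the choice of cells. A count of replication genes at or above the median of 20 of the cycling cells was found in 49.2% and 41.8% of intermediate cells, and in 14.5% and 19.5% of resting cells. A count of mitosis genes at or above the median of the cycling cells of the library was found in 0 of 118 intermediate cells in library 1 (limit 2.54% for a count of 0) and in 4.24% in library 2. It was found in 0 of 325 and 0 of 390 resting cells, with limits of 0.923% and 0.769%. Cells called resting by their MKI67 and TOP2A thus included some with many replication transcripts.

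**Figure D3:**
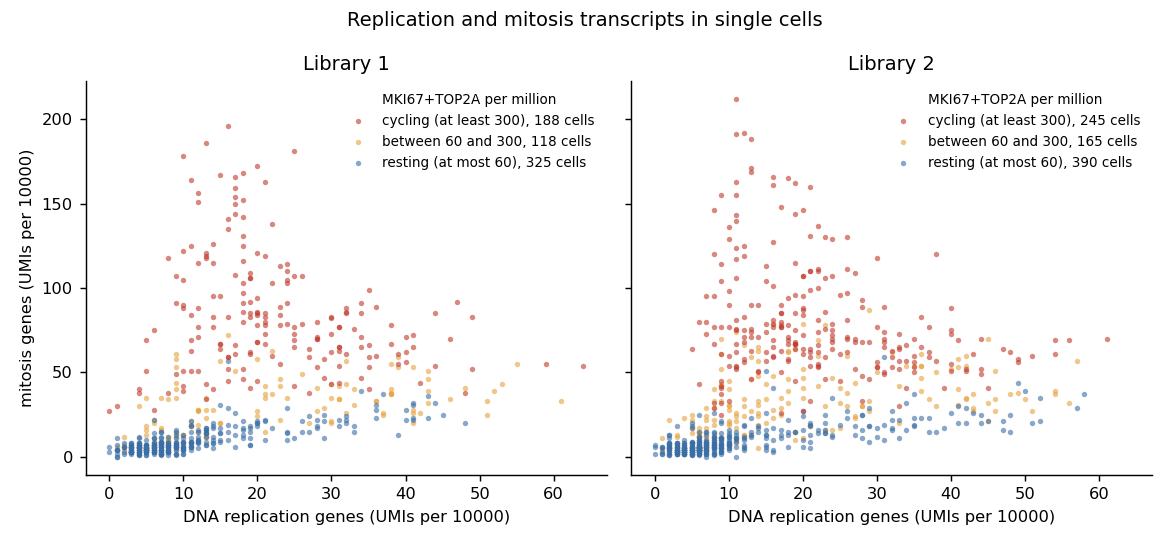
UMIs of 83 mitosis genes (vertical) against UMIs of 40 DNA replication genes (horizontal) in each cell of the gate after thinning to 10000 UMIs, for library 1 (left) and library 2 (right). Red points are cycling, orange intermediate and blue resting cells; cells with the most mitosis UMIs have few to moderate replication UMIs, and some blue and orange points reach over 40 replication UMIs at low mitosis counts.

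Within the cycling cells the counts of the replication and mitosis programmes varied. The cycling cells of each library were put into 3 equal groups by their replication count. In the highest group the mean of 58 histone genes was 23.2 and 16.0 UMIs per 10000, against 9.26 and 8.51 in the lowest. The 83 mitosis genes averaged 67.6 and 66.6 UMIs in the highest group, 97.1 and 84.0 in the middle one and 88.7 and 89.7 in the lowest. All these cells were chosen on MKI67 and TOP2A, of the same wave, so mitosis transcripts in every group follow from the rule. CENPF averaged 5.17 and 4.70 UMIs in the highest group and 9.73 and 10.0 in the lowest, and CDC20, the activator of anaphase, had a UMI in 39.7% and 29.3% of cells, against 71.0% and 64.2%. PLK1 had a UMI in 36.5% and 26.8% of the highest group, against 37.1% and 51.9% of the lowest, and CCNA2, whose order differed between libraries, in 46.0% and 53.7%, against 53.2% and 46.9%. CCNE2 had a UMI in 11.1% and 8.54% of the highest group and in 0 of 62 and 0 of 81 cells of the lowest, with limits of 4.84% and 3.70%. The amnion list averaged 38.6 and 39.2 UMIs in the highest group and 38.9 and 44.3 in the lowest. The groups were formed on the replication genes, so these values are a description.

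Along MKI67 and TOP2A the genes of the 2 programmes took different courses. In 5 bins of their sum, from 0 to 60, 60 to 150, 150 to 300, 300 to 600 and at least 600 CPM, PLK1 went through 1.86, 7.92, 13.3, 33.1 and 84.3 CPM in library 1 and through 2.54, 6.74, 19.4, 39.5 and 84.9 CPM in library 2. MCM6 had its highest value in the second bin in both libraries, with 39.1, 75.1, 63.5, 55.8 and 31.5 CPM in library 1 and 38.7, 71.5, 61.0, 54.8 and 29.2 CPM in library 2. UHRF1, which recruits the maintenance DNA methyltransferase to replicated DNA, and E2F1 were also highest in the second bin of both libraries. The cycling cells fill the 2 upper bins, and there MCM6 was above its resting level in the lower one and below it in the upper one. The sum of 58 histone genes differed most, as a ratio, between the second bin, with 375 and 413 CPM, and the third, with 1051 and 792 CPM.

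**Figure D4:**
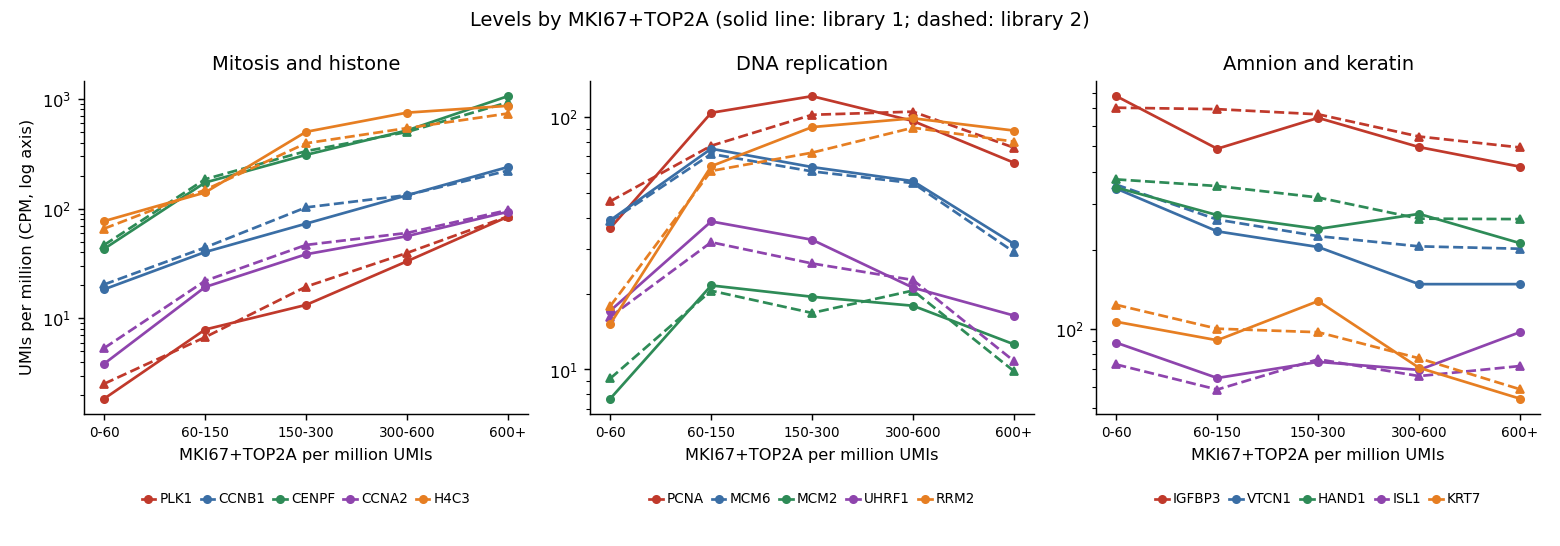
Summed levels (CPM, log axes) in 5 bins of MKI67 plus TOP2A in CPM of the cell, for mitosis and histone genes (left), DNA replication genes (middle) and amnion and keratin genes (right), with library 1 as solid and library 2 as dashed lines. The mitosis genes climb over all bins, MCM6 and UHRF1 are highest at 60 to 150, and VTCN1 is highest in the lowest bin.

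Some amnion markers fell in cycling cells. Of 18 tested 6 fell and 0 rose with edgeR, 5 fell and 0 rose with DESeq2, and 10, all lower, had an unadjusted p under 0.05. Of all genes 5.66% fell. The list had a median log2 fold change of -0.36. VTCN1 (chromosome 1, 117143587 to 117210927) stood at 149 and 205 CPM in cycling cells, against 345 and 357 CPM in resting cells, so both cycling values were below both resting ones (-1.05, SE 0.16, edgeR adjusted p 0.00145). After thinning to 10000 UMIs it had a UMI in 67.0% and 76.7% of cycling cells, against 88.3% and 89.7% of resting cells.

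IGFBP5 (105 and 120 CPM, against 189 and 187 CPM) and IGFBP3 (448 and 517 CPM, against 779 and 704 CPM), which bind insulin-like growth factors, fell by 0.80 and 0.70 on the log2 scale. HAND1, a transcription factor of extraembryonic tissue, was at 236 and 264 CPM, against 348 and 374 CPM (-0.59, SE 0.10). GABRP (-0.35) and the protease PAPPA2 (-0.37) were the other members that fell. ISL1, a transcription factor needed for amnion formation in primates, did not pass, with 87.0 and 69.5 CPM in cycling cells and 88.6 and 73.1 CPM in resting cells (-0.11, edgeR adjusted p 0.657), and TFAP2A was at 184 and 199 CPM, against 207 and 199 CPM.

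The fall of VTCN1 was not confined to the highest bins. It went through 345, 237, 206, 149 and 149 CPM over the 5 bins in library 1 and through 357, 262, 227, 207 and 203 CPM in library 2, and ISL1 showed no such order. Each cell's UMIs are shares of its total, so a rise of other genes lowers the share of the rest. How much of the falls this makes up was not tested. The 20 cytosolic ribosomal protein genes had 0 calls by edgeR or DESeq2, 1 unadjusted p under 0.05 and a median log2 fold change of -0.09. All 20 were nevertheless lower in cycling cells of both libraries, with log2 fold changes from -0.16 to -0.02.

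Some keratin and desmosome genes fell too. Of 10, 6 fell and 0 rose with edgeR and with DESeq2 (median -0.29), beside the 5.66% of all genes that fell. Over all settings 3 to 6 fell. KRT7 was at 60.4 and 66.8 CPM in cycling cells, against 107 and 124 CPM in resting cells (-0.92, SE 0.12), and KRT19 at 707 and 746 CPM, against 1010.5 and 1157 CPM (-0.64, SE 0.09). KRT19 lost its call with the UMIs split at random (adjusted p 0.0682). KRT8, DSC2, JUP and PERP fell by 0.27 to 0.53 on the log2 scale, and KRT18, at 1379 and 1429 CPM, against 1397 and 1613 CPM, did not pass.

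**Figure D5:**
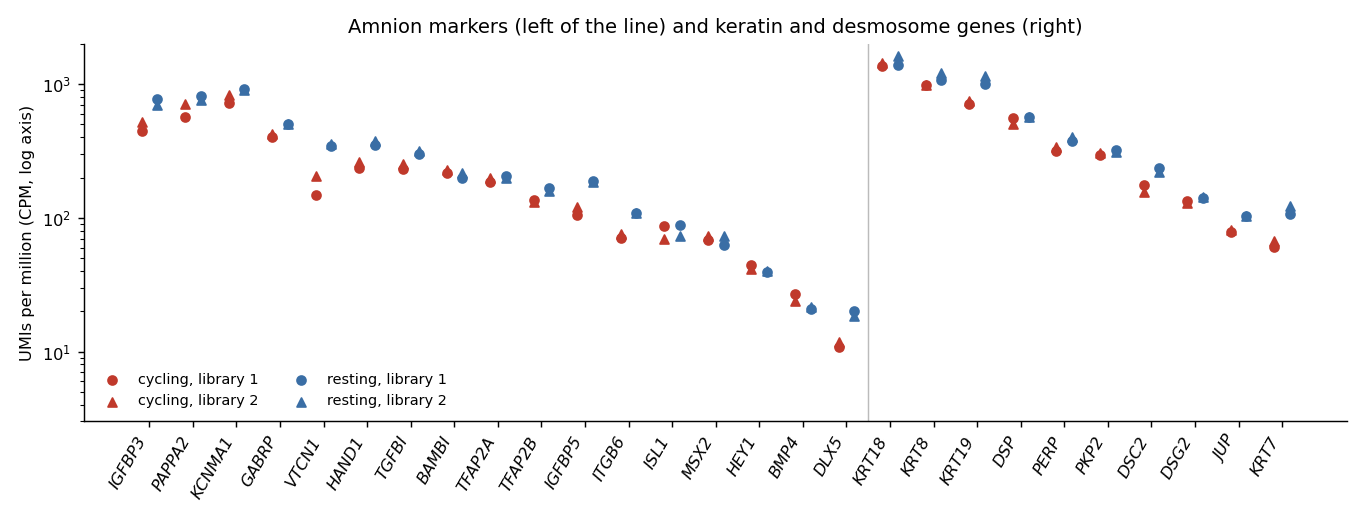
Levels of 17 amnion markers (left of the line, GCM1 at 0 UMIs in cycling cells left out) and 10 keratin and desmosome genes (right of the line) in CPM on a log axis. Red points are cycling and blue points resting cells, circles library 1 and triangles library 2; VTCN1, IGFBP5 and KRT7 show wide gaps, and ISL1, BAMBI and MSX2 overlap.

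The sum that the rule limits was lower in cycling cells as well. The GATA2, GATA3, PPARG and PEG10 sum had medians in cycling cells of 243 and 231 CPM, against 311 and 297 CPM in resting cells. GATA3 was at 106 and 100 CPM, against 141 and 135 CPM, and GATA2 and PPARG were lower too. PEG10 was not: it stood at 120 and 84.6 CPM, against 90.8 and 84.9 CPM. The rule cut the sum at 700 CPM in both classes, and these 4 genes were not tested. Of 13 trophoblast markers tested 3 fell, beside 5.66% of all genes: KRT7, VGLL1 (-0.60) and LRP2 (-0.50). VGLL1 lost its call with thinning (edgeR adjusted p 0.170), and LRP2 with MKI67 and TOP2A at 500 CPM or more (edgeR adjusted p 0.104). With POU5F1 under 100 CPM and the GATA2, GATA3, PPARG and PEG10 sum under 350 CPM, both lost their calls (VGLL1 -0.41, edgeR adjusted p 0.121, LRP2 -0.43, edgeR adjusted p 0.0532). In that narrower gate KRT7 (-0.96, adjusted p 6.82e-04) and VTCN1 (-0.91, adjusted p 0.00256) kept theirs.

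Among genes that passed the same limit on level as the largest rises, the 10 with the largest falls belonged to none of the lists. PCDH9, a protocadherin, stood at 13.0 and 15.9 CPM in cycling cells, against 60.5 and 65.3 CPM in resting cells, a log2 fold change of -2.20 (SE 0.31, edgeR adjusted p 7.03e-04). ACSM3, a mitochondrial acyl-CoA synthetase, was at 11.8 and 14.4 CPM, against 57.6 and 54.5 CPM (-2.16, SE 0.18), and ADAMTS1, a secreted protease, at 10.4 and 19.4 CPM, against 63.8 and 54.9 CPM (-2.07, SE 0.37). KHDRBS2, an RNA-binding protein, was at 70.7 and 90.1 CPM, against 250 and 260 CPM (-1.73, SE 0.23).

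The others were LINGO2 (-1.84), RELN (-1.78), LRRC4C (-1.67), CDHR3 (-1.38), PCDH17 (-1.35) and FBXO32, an E3 ubiquitin ligase (-1.28). RELN, LRRC4C and PCDH17 did not pass with DESeq2 (adjusted p 0.212, 0.0905 and 0.333). The same direction in both libraries was a condition for naming these 10 genes.

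The genes that fell were longer than the rest. Among genes with a RefSeq match, 91.7% of those tested, the median span was 75.7 kb for genes that fell, 34.0 kb for genes that rose and 34.6 kb for all tested. Spans over 100 kb made up 43.0%, 14.5% and 22.2% of these groups. At 20 CPM or more the medians were 105, 37.8 and 46.2 kb. The part of gene length in the calls was not tested.

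Some markers of other cell types differed too. Of 12 epiblast markers tested 3 rose, beside 5.7% of all genes: MIR302CHG (11.7 and 4.77 CPM in cycling cells, against 3.25 and 1.52 CPM in resting cells), SFRP2 (5.35 and 3.96 CPM, against 2.01 and 1.16 CPM) and TERF1, a telomere protein (74.7 and 64.4 CPM, against 47.8 and 49.5 CPM). DESeq2 called only TERF1 of the 12, and in 4 of 12 other settings TERF1 lost its call (adjusted p 0.0505 to 0.144). The summed level of the 16 epiblast markers was 1087 and 1039 CPM in cycling cells, against 1086 and 1054 CPM in resting cells. Of 6 streak and mesoderm markers and 1 endoderm marker tested, 0 passed with edgeR or DESeq2, and 1 of the streak markers had an unadjusted p under 0.05.

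Of 13 mesenchyme and matrix genes 3 fell, VIM (-0.53), COL6A3 (-0.89) and FN1 (-0.34), beside 5.66% of all genes. COL6A3 lost its call with DESeq2 (adjusted p 0.0573) and in the narrower gate (adjusted p 0.0894). The list summed to 2792 and 2805 CPM in cycling cells, against 3526 and 3501 CPM in resting cells. Of 4 neuronal genes tested TUBB3 fell (-0.92), a call lost with DESeq2 (adjusted p 0.0775). STMN2, at 44.8 and 48.9 CPM, against 95.9 and 88.6 CPM, did not pass (edgeR adjusted p 0.0611), but passed in 7 of 12 other settings. DCX, a defining marker of young neurons, was at 1.88 and 1.89 CPM in cycling cells.

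LDHA, lactate dehydrogenase A, was the only 1 of 17 glycolysis genes to pass, at 99.1 and 103 CPM in cycling cells, against 57.3 and 71.2 CPM in resting cells (0.60, SE 0.14). Of 20 nuclear respiratory chain genes 0 passed with edgeR or DESeq2 (3 had an unadjusted p under 0.05), with a median of 0.00. FDPS, an enzyme of cholesterol synthesis, rose (0.58), and 0 of 13 immediate early genes passed with edgeR or DESeq2 (1 had an unadjusted p under 0.05).

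Cells high for the GATA2, GATA3, PPARG and PEG10 sum gave a second pair of cycling and resting classes, with 21 and 34 cycling and 44 and 38 resting cells. The difference between cycling and resting cells differed between the gates for 2 of 14969 genes (0.0134%), DYSF and DEPDC1B, by edgeR's test of the interaction. DYSF, which encodes the membrane repair protein dysferlin, stood at 23.8 and 17.2 CPM in cycling amnion-like cells and at 26.5 and 26.0 CPM in resting ones, and at 11.6 and 12.1 CPM in cycling GATA-sum-high cells, against 87.6 and 69.6 CPM in resting ones. Without adjustment 1168 genes had a p under 0.05. The count was 30 with DESeq2, 50 with no filter on low counts, and 0 with at least 20000 UMIs or in the narrower gate. Both named calls were lost in 4 settings (adjusted p 0.0591 to 0.515).

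VTCN1 in cycling GATA-sum-high cells was at 115 and 119 CPM and GABRP at 294 and 319 CPM, below the amnion-like cycling cells. Other amnion markers were above them: IGFBP3 (814 and 1124 CPM, against 448 and 517 CPM), HAND1 (338 and 407 CPM, against 236 and 264 CPM) and MSX2 (157 and 196 CPM, against 68.6 and 73.1 CPM). The 18 amnion markers summed to 3502 and 4188 CPM, against 3712 and 4167 CPM, so their sum did not set these cycling cells apart. The amnion list had a median log2 fold change of -0.57 in the GATA-sum-high gate and of -0.36 in the amnion-like gate. Its members are not among the 2 genes called in the test of the interaction.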

How the data were processed

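For each library the authors deposited raw UMI counts of genes in barcodes, made with Cell Ranger 9.0.0 and GRCh38 per the submitters' processing notes. Barcodes were chosen by the limits given in the report. Members, gene lists and tests were chosen with earlier results of these data known. Counts were summed per library and class (3 gates by 3 levels of MKI67+TOP2A, classes of at least 20 cells in both libraries: 12 sums of 6 classes, 5 residual degrees of freedom) over the 25556 of 28363 genes in both tables. edgeR 4.0.16 in R 4.3.3 (quasi-likelihood, TMM, filterByExpr, library as a block because both libraries hold every class) gave log2 fold changes, SE and Benjamini-Hochberg adjusted p. The genes of the rule and mitochondrial genes were not tested. CPM are UMIs of a gene per 1000000 UMIs of the cell or summed class. Cells were thinned to 10000 UMIs for shares and list counts. Doublets were marked with scrublet in scanpy 1.11.5 and kept; it marks doublets of unlike cells only.

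Named genes are the 10 largest rises and falls past the threshold that agreed in sign between libraries and had at least 50 CPM in the higher class, up to 4 members per list at 10 CPM or more, the cyclins, the CDK inhibitors and the called interactions. Other genes named as members of a list, or singled out, were chosen after their values were seen. Gene positions and spans are from RefSeq (GRCh38.p14). The fit was tested on simulated data. Alternatives were DESeq2 1.42.0, its size factors in edgeR, no filter, no block, fewer classes, thinning, depth limits, split UMIs, no marked doublets and other thresholds. Promoter sequences were not analysed here. Results for some genes are not reported here.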

Additional observations from a re-analysis of the deposited data

Results flagged for a closer look

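For 2 genes the difference between cycling and resting cells was not the same in the amnion-like gate and in cells high for the GATA2, GATA3, PPARG and PEG10 sum, by edgeR's test of the interaction. For DYSF the log2 fold change was higher by 2.32 in the amnion-like gate (SE 0.28, adjusted p 0.0376), where it was -0.44. DYSF stood at 23.8 and 17.2 CPM in cycling and at 26.5 and 26.0 CPM in resting amnion-like cells, and at 11.6 and 12.1 CPM in cycling and at 87.6 and 69.6 CPM in resting GATA-sum-high cells. For DEPDC1B, a gene of cell cycle progression, it was higher by 1.99 (SE 0.25, adjusted p 0.0376). DEPDC1B stood at 107 and 94.2 CPM in cycling and at 14.3 and 12.3 CPM in resting amnion-like cells, and at 85.5 and 101 CPM in cycling and at 56.1 and 43.1 CPM in resting GATA-sum-high cells. The GATA-sum-high classes held 21 to 44 cells per library.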

How the results depend on the processing

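Settings that changed a count were as follows. Genes that rose numbered 2427 and genes that fell 2379 with only the 2 classes compared, where 1 residual degree of freedom is left. Falls numbered 539 with DESeq2 and 398 with the narrower gate, which was added after seeing the data. With no replicate block (the block pairs the classes of a library), 767 genes rose, 702 fell and 3 differed between gates, within 1.5 times the main counts. Genes that differed between gates numbered 30 with DESeq2, 50 with no filter, 1 with thinning, 0 with at least 20000 UMIs, 1 with split UMIs and 0 with the narrower gate; at 0 the unadjusted p was under 0.05 for 1147 and 1012 genes. The calls for DYSF and DEPDC1B were lost in 4 settings, with adjusted p from 0.0591 to 0.515. The cycling share was 31.2% with at least 20000 UMIs, 35.4% and 21.1% with thresholds of 200 and 500 CPM, 33.1% with thinning, and 29.8 to 30.6% leaving out either library. Leaving out a library leaves no residual degrees of freedom, so calls were not tested there.

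Of 80 named genes with a call 11 lost it in at least 1 of 12 settings and 0 reversed, and 31 of 42 without one gained it in some setting. Signs turned, without a call, for CCNE1 (-0.047, split UMIs), EGR1 (-0.031, narrower gate), CCND3 (0.16, thinning) and RB1 (0.0072 with DESeq2, 0.0071 with its size factors, 0.013 with the narrower gate, 0.030 with no filter, 0.034 with 2 classes, 0.064 with thinning, 0.11 at 20000 to 60000 UMIs). The medians of the 5 mitosis lists ran from 2.01 to 4.01 and that of the amnion list from -0.37 to -0.28 over the settings, with 4 to 11 amnion genes lower. The difference against POU5F1-high cells could not be fitted, since library 1 held 17 cycling and 9 resting cells, under the limit of 20, and with 2 libraries the spread is known only roughly.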

Other observations

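Some abundant genes outside the lists, chosen after their values were seen, differed between cycling and resting amnion-like cells. NEAT1, the long RNA that builds nuclear paraspeckles, stood at 347 and 336 CPM in cycling cells, against 827 and 707 CPM in resting cells, a log2 fold change of -1.23 (SE 0.10, edgeR adjusted p 7.42e-06). MXD4, a MAX partner that opposes MYC, was at 39.9 and 47.4 CPM, against 90.3 and 85.0 CPM (-1.07), and ARHGAP24, a Rac GTPase-activating protein, at 272 and 283 CPM, against 571 and 562 CPM (-1.09). CTSV, a lysosomal protease, was at 1327 and 1231 CPM, against 2222 and 1898 CPM (-0.75). LMNB1, a nuclear lamin, stood at 86.8 and 88.8 CPM, against 21.0 and 23.9 CPM (1.90), TMPO, a lamina-associated protein, at 174 and 182 CPM, against 71.1 and 74.4 CPM (1.22), and TUBA1B, an alpha-tubulin, at 1147 and 1226 CPM, against 352 and 431 CPM (1.54).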
